A study of Rattus norvegicus with 36 samples.

Results

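Rat (Rattus norvegicus) extraocular muscle (EOM), the tissue that turns the eyeball, was compared with limb muscle (gastrocnemius and soleus, here called leg) at postnatal day 14, about when the eyelids open. The 6 arrays were chosen by their titles, which give muscle, age and replicate, and they are 6 of the 36 arrays of the series. EOM at day 14 had 3 arrays and leg at day 14 had 3 arrays. The series sampled both muscles at 6 ages in 12 groups of 3 arrays, and the other ages enter here as days 7 and 21. Total RNA of whole muscle was hybridised to an older Affymetrix rat expression array, each of which gives 1 intensity per probe set (a group of probes for 1 transcript). The labels name no strain, sex, treatment or number of animals, and they do not tie replicates to separate animals. The p-values given here therefore reflect only the spread among replicate arrays, pooled over the 36 arrays of the series, which may be technical.

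Skeletal muscle fibres contract when an action potential at the surface opens calcium stores inside the fibre, and they differ in the myosin heavy chain they carry, in calcium handling and in fuel use. Limb muscles hold slow fibres and the usual fast types. Extraocular muscles are small, fast and fatigue resistant, with dense innervation and small motor units, and besides the limb isoforms they carry a myosin of their own, Myh13, and keep embryonic and cardiac forms into adult life. In rodents the weeks around eye opening are the time in which fetal isoforms give way to adult ones.

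Differences are EOM minus leg on a log2 scale after values under an intensity of 100 had been set to 100, with the standard error of the fit. A gene or probe set is called where the adjusted p of limma (Benjamini-Hochberg over all 6672 probe sets tested) lay under 0.05. A fold is the ratio of the group means on that scale, and it is a lower bound ("at least") where an array of the dimmer muscle lay at the floor of 100. Array medians were 476.9 to 537.2 units in EOM and 483.9 to 500.3 units in leg, and the share of probe sets at the floor was 18.57% to 22.03% per array. Arrays of EOM correlated at 0.918 to 0.939 with each other across probe sets, those of leg at 0.934 to 0.939, and arrays of different muscles at 0.880 to 0.938. The highest value between muscles joined EOM array 3 and leg array 3, which were thus as alike as arrays of 1 muscle. The ratio of the 3′ to the 5′ control probe set of beta-actin, a measure of RNA quality and labelling, was 0.948, 0.995 and 1.68 on the EOM arrays, against 0.792, 0.703 and 0.886 on the leg arrays, so that the groups did not overlap; the ratio for GAPDH overlapped, at 0.913, 0.602 and 0.807 on the EOM arrays and 0.956, 0.192 and 0.151 on the leg arrays, with leg arrays 2 and 3 far under the others. The part of either ratio in the differences was not tested. The GAPDH control sets were themselves uneven. On leg array 1 the middle set read 879.5 units, against 11734.9 (3′) and 12272.1 (5′) units. On EOM array 2 it read 1570.2 units, against 6043.8 (3′) and 10038.4 (5′) units. The GAPDH ratio is therefore unsure as a measure of RNA quality. Some bright probe sets were unstable between replicates: Ckm, the muscle creatine kinase, read 1988, 570.3 and 679 units in EOM and 894, 0.1 and 0 units in leg, and 260 probe sets spread over 3 or more log2 units within at least 1 group of the series.

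Skeletal muscle markers were present in both samples: none of the 13 tested was at the floor on all arrays of either muscle. Their summed intensity was 121407 to 142654 units in EOM against 133310 to 165991 units in leg. None was called higher and 2 were called lower (15.4%, against 4.91% of all genes). Myh13, the myosin heavy chain of extraocular muscle, had 22058, 16394 and 20175 units in EOM, against 465, 897 and 431 units in leg. Every EOM array lay far above every leg array. The difference was 5.10 ± 0.60 (adjusted p = 1.11e-06), and since the EOM arrays lay in the brightest 5% of all values it can be understated. Of the 9 eye genes on the array, 7 were tested and none was called, with a summed intensity of 3223 to 4128 units in EOM and 3202 to 3724 units in leg. Pax6, a transcription factor of the eye, read at or under 31.7 units on all 6 arrays.

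At day 14, 328 of 6672 probe sets (4.92%) were called, 174 of them higher (2.61%) and 154 lower (2.31%) in EOM. 1 probe set of highest mean was kept for each gene, which left 3889 genes, and 191 of these were called (4.91%), 111 higher (2.85%) and 80 lower (2.06%). The change was 2-fold or more for 124 genes (3.19%), with 77 higher and 47 lower. In 185 of the 191 called genes all arrays of one muscle lay above all arrays of the other, which was so for 898 of all 3889 genes (23.1%). The median difference over all genes was 0.04. With the 6 arrays alone and the replicate number as a block, 90 probe sets were called, 82 of them among the 328. Without leg array 1 or leg array 2 the count was 193 or 177, and without EOM array 3 and leg array 3 together it was 300, of which 226 were among the 328. Of the 76 called genes named in the text by rule, 39 kept the call in all 6 fits that each left out 1 array and 37 lost it in at least 1. A gene of the second kind is given with the arrays whose removal ended the call and the highest adjusted p over the 6 fits.

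**Figure D1:**
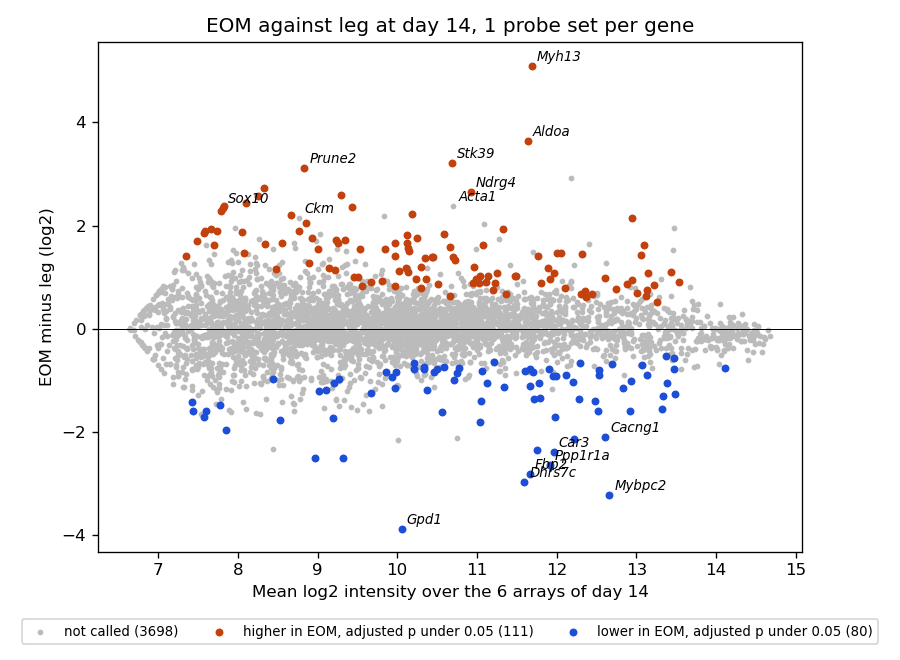
Difference between muscles for each of 3889 genes at day 14. The horizontal axis gives the mean log2 intensity over the 6 arrays, the vertical axis EOM minus leg (log2). Each point is 1 gene, red where higher in EOM (111) and blue where lower in EOM (80) at an adjusted p under 0.05, grey where not called (3698). Myh13 and Aldoa lie highest and Gpd1 lowest among the called genes, and the unstable probe sets of Ckm and Acta1 are labelled among the genes not called.

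For the fast and fetal myosin heavy chains other than Myh13, no difference passed the test. Myh2, of fast oxidative fibres, read 22188, 19418 and 20856 units in EOM and 35389, 25467 and 25796 units in leg, a difference of -0.46 ± 0.27 (adjusted p = 0.428). Myh4, of the fastest limb fibres, read 18358, 23143 and 20995 units in EOM and 27293, 21947 and 20347 units in leg (-0.15 ± 0.37, adjusted p = 0.91). The 3 arrays of each muscle overlapped for Myh4, and for Myh2 all leg arrays lay above all EOM arrays without reaching the threshold. Myh1, of intermediate fast fibres, differed by 0.56 ± 0.34 (adjusted p = 0.436). The embryonic myosin Myh3 read 22099, 15563 and 18682 units in EOM and 23634, 15364 and 19568 units in leg, and the perinatal myosin Myh8 read 11098, 12142 and 11348 units in EOM and 9056, 12092 and 10994 units in leg. These fetal isoforms overlapped almost fully between the muscles, with differences of -0.05 ± 0.39 and 0.12 ± 0.29 (adjusted p = 0.978 and 0.91). All of these except Myh1 lay in the brightest 5% of values on at least 5 of 6 arrays, where differences can be compressed. None of the other Myh3 probe sets was called, but they read at unlike levels. On the 6 arrays, 1 of them read 180.8 to 746.5 units and another ranged from 65.0 to 20217.0 units. The level of Myh3 is therefore unsure.

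The slow and cardiac myosins gave a mixed result. The Myh7 probe set of highest mean, for the slow and beta cardiac chain, read 15217, 16506 and 14031 units in EOM and 25701, 17798 and 18150.2 units in leg, with all leg arrays above all EOM arrays but short of the threshold (-0.41 ± 0.21, adjusted p = 0.338). A second probe set of Myh7 was called, at -1.62. Myh6, the alpha cardiac chain, read 5746, 4809 and 7784 units in EOM, against 22178, 18499.7 and 13406 units in leg, and was thus low on every EOM array (-1.56 ± 0.32, adjusted p = 0.00238), with 2 of 3 probe sets called. Myh6 and Myh7 are nearly identical in sequence, so which of the pair these probe sets measured is uncertain. Myl4, the embryonic and atrial light chain, was higher in EOM: it read 1467, 1712 and 1851 units there, against 610.2, 803 and 813 units in leg, in 1 of 2 probe sets (1.18 ± 0.33, adjusted p = 0.0295, up to 0.136 without EOM array 1, 2 or 3 or leg array 1 or 2). In the list of myosin heavy chains and developmental isoforms, 2 of 13 tested genes were higher and 1 was lower (23.1%, against 4.91% of all genes). The median difference was -0.15.

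Several fast fibre proteins were called lower in EOM, while the fast myosins Myh1, Myh2 and Myh4 were not called. Of 13 tested genes on the adult fast fibre list 4 were lower (30.8%, against 4.91% of all genes), none was higher, and the median difference was 0.23, opposite in sign to the calls. That median counts in the positive differences of Ckm (2.14 ± 1.38) and Atp2a1 (1.64 ± 2.07), whose probe sets were unstable between replicates. Of the 13 differences 7 were positive, so the sign of the median is unsure. Mybpc2, the fast isoform of myosin binding protein C, had 2345, 2486 and 1639 units in EOM, against 28507, 22232 and 12265 units in leg. All leg arrays lay far above the EOM arrays. The difference was -3.22 ± 0.33 (adjusted p = 1.50e-07), with the leg arrays in the brightest 5% of values. Dhrs7c, an enzyme of the sarcoplasmic reticulum membrane, had 1325, 1283 and 784 units in EOM, against 7228, 11178 and 8118 units in leg (-2.98 ± 0.40, adjusted p = 1.19e-05). Ampd1, the muscle AMP deaminase, read 4697, 4979 and 5005 units in EOM and 8597, 12315 and 12335 units in leg (-1.16 ± 0.20, adjusted p = 0.00029). The groups were apart for all of these. Tnni2, the fast inhibitory troponin, was lower at -0.76 ± 0.20 (adjusted p = 0.0227, up to 0.131 without EOM array 1, 2 or 3 or leg array 2 or 3), on the brightest part of the scale in both muscles. Pvalb, the calcium buffer parvalbumin, read 23802, 16884 and 21893 units in EOM and 24577, 12656 and 17575 units in leg, with overlap (0.23 ± 0.33, adjusted p = 0.82).

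**Figure D2:**
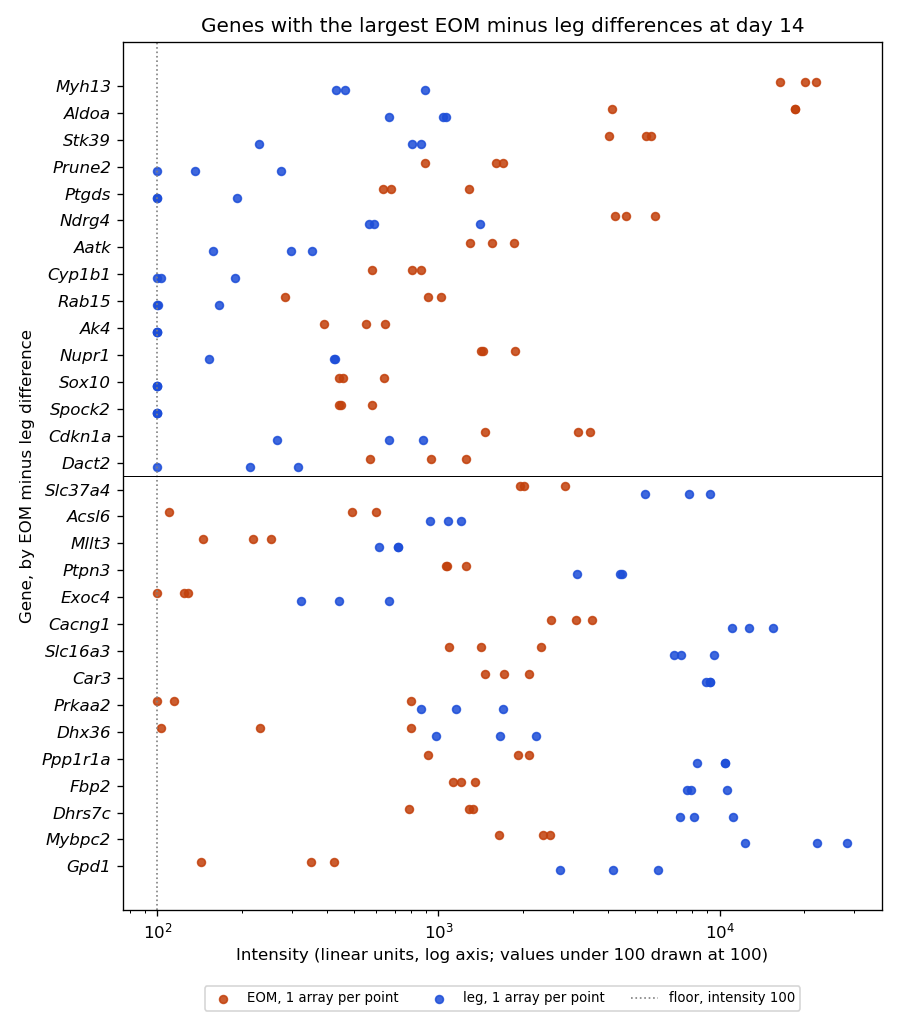
Intensity on each of the 6 arrays for the 15 genes with the largest differences each way among those called and not overlapping. The horizontal axis is intensity on a log scale with values under 100 drawn at 100, red points are the EOM arrays and blue points the leg arrays. Myh13 reads 16394 to 22058 units in EOM against 431 to 897 units in leg, and Gpd1 reads 144 to 426 units in EOM against 2705 to 6013 units in leg. For Sox10, Spock2 and Ak4 all leg points lie at the floor.

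Among slow fibre proteins 1 of 11 tested genes was higher and 2 were lower in EOM (27.3%, against 4.91% of all genes), with a median of -0.41. Car3, a carbonic anhydrase abundant in slow limb fibres, had 1717, 2095 and 1464 units in EOM, against 9267, 8964 and 9206 units in leg, which was 5.26-fold lower in EOM (-2.39 ± 0.35, adjusted p = 3.84e-05). Csrp3, the muscle LIM protein of the Z disc, had 4315, 4264 and 4769 units in EOM, against 11784, 14197 and 14735 units in leg (-1.60 ± 0.23, adjusted p = 2.37e-05). Both genes were low on every EOM array. Pln, phospholamban, the brake on the calcium pump of slow and cardiac muscle, ran the other way with 358, 338 and 510.4 units in EOM, against 113, 20.2 and 20.8 units in leg. EOM exceeded leg at least 3.8-fold (1.93 ± 0.36, adjusted p = 0.000963), and 2 of the 3 leg arrays lay at the floor.

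Several genes that couple the surface signal to calcium release were lower in EOM. Of 15 tested, 6 were lower and 1 was higher (46.7% called, against 4.91% of all genes), and the median difference was -0.89. Cacng1, the gamma subunit of the muscle calcium channel that senses voltage in the transverse tubules, had 3529, 3096 and 2511 units in EOM, against 11084, 15444 and 12724 units in leg. The leg arrays lay well above all EOM arrays, with a difference of -2.10 ± 0.29 (adjusted p = 2.19e-05). Cacna1s, the pore subunit of the same channel, had 3305, 3604 and 2991 units in EOM, against 8011, 6851 and 5556 units in leg (-1.03 ± 0.26, adjusted p = 0.0129, up to 0.0851 without leg array 1 or 2), and 1 of its 2 probe sets was called. Asph, whose locus also encodes the reticulum protein junctin, had 7258, 7428 and 5307 units in EOM, against 14797, 12346 and 10026 units in leg (-0.89 ± 0.20, adjusted p = 0.00687, up to 0.0662 without EOM array 3 or leg array 1). Camk2d, a calcium and calmodulin dependent kinase, was lower at -1.40 ± 0.23 (adjusted p = 0.000129), with 1 of its 4 probe sets called. Homer2, a scaffold that binds calcium channels, was lower at -1.19 ± 0.34 with 3 of 3 probe sets called (adjusted p = 0.035, up to 0.22 without EOM array 2 or 3 or leg array 1, 2 or 3). The sixth was Calm2, 1 of the calmodulin genes, which is named here after its values were seen, with -0.71 ± 0.21 (adjusted p = 0.0426, up to 0.254 without EOM array 1 or 3 or leg array 2 or 3). The single gene that was higher was S100a1, a calcium sensor that binds the release channel, with 5458, 4875 and 4312 units in EOM, against 2281, 2787 and 2844 units in leg. All 4 of its probe sets were called, and the groups were apart (0.89 ± 0.21, adjusted p = 0.00898, up to 0.0653 without EOM array 1 or leg array 1). With 1 array left out the list had 3 to 5 genes lower, 3 of them without leg array 1 or leg array 2, and 6 without EOM array 3 and leg array 3 together. Atp2a1, the fast calcium pump, belonged to the unstable probe sets: it read 7647, 7765 and 14996 units in EOM and 20858, 80.4 and 14164 units in leg (adjusted p = 0.788).

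**Figure D3:**
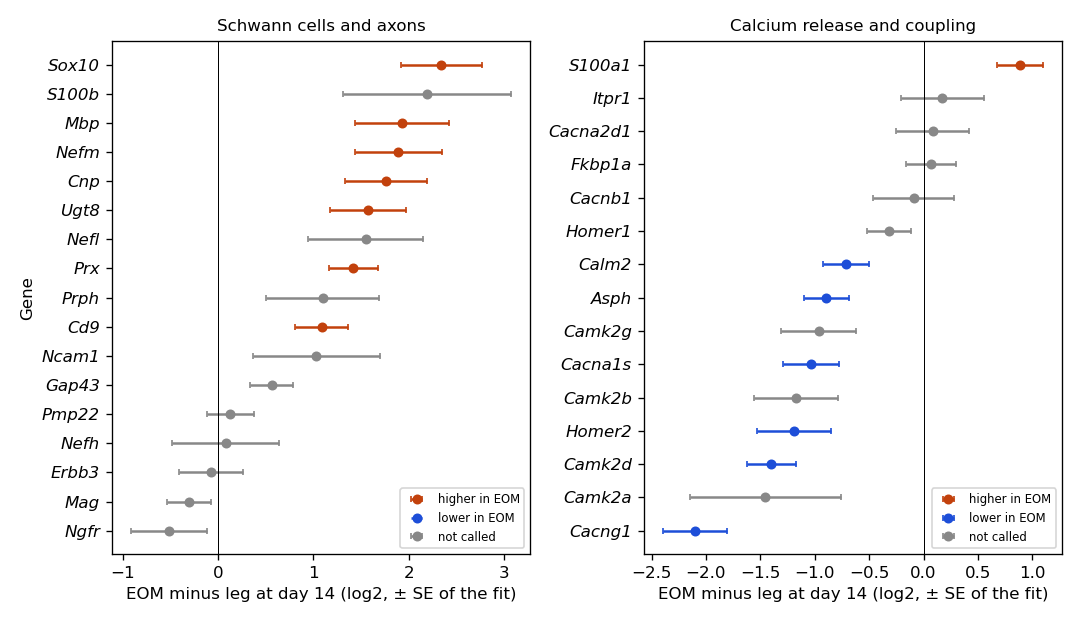
EOM minus leg at day 14 for each tested gene of the Schwann cell and axon markers (left) and of the list of calcium release and excitation contraction coupling (right). The horizontal axes are log2 differences and the bars are the standard error of the fit; red is higher and blue is lower in EOM at an adjusted p under 0.05, grey is not called. Of 17 nerve markers 7 were higher, up to 2.34 for Sox10, and of 15 coupling genes 6 were lower, down to -2.10 for Cacng1.

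In carbohydrate metabolism, enzymes of glycerol phosphate and glycogen stood low in EOM. Gpd1, the cytosolic glycerol phosphate dehydrogenase that passes glycolytic electrons to mitochondria, had 426, 351 and 144 units in EOM, against 4189, 6013 and 2705 units in leg. It was 14.7-fold lower in EOM (-3.88 ± 0.65, adjusted p = 0.000224). Fbp2, the muscle fructose bisphosphatase, had 1203, 1348 and 1124 units in EOM, against 7925, 10638 and 7650.3 units in leg, with both probe sets called (-2.82 ± 0.35, adjusted p = 2.50e-06). Gyg1, glycogenin, which primes glycogen synthesis, was lower at -1.60 ± 0.33 (adjusted p = 0.00243), with 3 of 3 probe sets called. Phkg1, the catalytic subunit of phosphorylase kinase, which starts glycogen breakdown, was lower at -0.78 ± 0.20 (adjusted p = 0.016, up to 0.0753 without EOM array 1 or 3 or leg array 1 or 2). Of its probe sets 2 of 3 were called. The other members did not move as a block. Of 27 tested glycolysis and glycogen genes 4 were lower and 2 were higher (22.2%, against 4.91% of all genes), and the median was -0.07. Hk1, the hexokinase of tissues with steady glucose use, was higher in EOM in 1 of 2 probe sets, with 4192, 5188 and 3223 units there, against 2159.9, 2045 and 1876 units in leg (1.03 ± 0.21, adjusted p = 0.00258). Aldoa, the muscle aldolase, read 18605, 4151 and 18595 units in EOM, against 1035, 669 and 1063 units in leg (3.64 ± 1.07, adjusted p = 0.0422). Its probe set ranged over 6.05 log2 units within a single group of the series and its adjusted p was up to 0.165 without EOM array 1 or 3 or leg array 1, 2 or 3, so it is unsure as a difference between muscles.

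Outside that list, 2 transporters of the same field were lower. Slc16a3, the carrier by which glycolytic fibres export lactate, had 2312, 1419.7 and 1093 units in EOM, against 7302, 9583 and 6855 units in leg (-2.35 ± 0.29, adjusted p = 2.16e-06). Slc37a4, the glucose phosphate carrier of the endoplasmic reticulum, was lower at -1.71 ± 0.25 (adjusted p = 3.84e-05), with both probe sets called. Prkaa2, the catalytic alpha 2 subunit of the energy sensor AMP kinase, read 59, 115 and 799 units in EOM, against 1699, 1155 and 864 units in leg. EOM array 3 lay just under the lowest leg array while the other EOM arrays lay near the floor (-2.51 ± 0.64, adjusted p = 0.016, up to 0.136 without EOM array 1 or 2 or leg array 1 or 2). The pattern was alike for Dhx36, a helicase that unwinds guanine quadruplexes, at 103, 233 and 799 units in EOM and 1649.5, 2222 and 979.6 units in leg (-2.52 ± 0.61, adjusted p = 0.0106, up to 0.133 without EOM array 1 or leg array 2). Acsl6, which activates long chain fatty acids, was lower at -1.74 ± 0.40 (adjusted p = 0.00648, up to 0.0749 without EOM array 3, where the difference was -0.97).

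Few mitochondrial genes were called. Of 28 tested genes of oxidative phosphorylation and the citrate cycle 1 was higher and none was lower (3.57%), with a median of -0.10, and of 31 tested genes of fatty acid uptake and oxidation 1 was higher and none was lower (3.23%), with a median of 0.09. These shares lay near that of all genes. Ak4, an adenylate kinase of the mitochondrial matrix, had 391, 643 and 554 units in EOM and 65.5, 67.5 and 31.5 units in leg, where all arrays lay at the floor. EOM exceeded leg at least 5.19-fold (2.37 ± 0.45, adjusted p = 0.00104). Ech1, an enzyme that handles unsaturated fatty acids in mitochondria and peroxisomes, had 15741, 15256 and 17903 units in EOM, against 7281, 7225 and 8375 units in leg. The groups were apart (1.10 ± 0.20, adjusted p = 0.00071).

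Ion transport held a large difference in 1 regulator and little in the pumps and channels. Stk39, the kinase SPAK that switches cation and chloride cotransporters on, had 5706, 5481 and 4049.5 units in EOM, against 229, 866 and 808 units in leg. It was 9.24-fold higher in EOM (3.21 ± 0.52, adjusted p = 0.000124), in 1 of its 3 probe sets. Atp1b3, a beta subunit of the sodium pump, was lower at 2657, 3165 and 4155 units in EOM, against 6079, 5879.8 and 6224 units in leg (-0.89 ± 0.17, adjusted p = 0.000897). These were the 2 genes called among 21 tested (9.52%, against 4.91% of all genes), and the median was -0.31.

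Markers of Schwann cells and axons were higher in EOM at day 14. Of 17 tested, 7 were higher and none was lower (41.2%, against 4.91% of all genes), and the median difference was 1.10, against 0.04 over all genes. In RNA of whole muscle, more cells of a type and more RNA per cell cannot be told apart. Sox10, the transcription factor of Schwann cells, had 443, 642 and 457 units in EOM and 27.4, 48.3 and 36.3 units in leg, where all arrays lay at the floor. EOM exceeded leg at least 5.06-fold (2.34 ± 0.42, adjusted p = 0.000596). Nefm, the middle neurofilament of axons, had 400.3, 436 and 293 units in EOM and 53.6, 32.5 and 51.9 units in leg, again with every leg array at the floor, which makes it at least 3.71-fold higher (adjusted p = 0.0104, up to 0.0531 without EOM array 2). Mbp, myelin basic protein, had 5034, 3720.0 and 6692 units in EOM, against 1539, 991 and 1486 units in leg (1.93 ± 0.49, adjusted p = 0.016, up to 0.0991 without EOM array 1 or 3 or leg array 2). Prx, periaxin, a scaffold of peripheral myelin, had 5079.6, 5939 and 6099 units in EOM, against 2235, 1718 and 2525 units in leg, 2.67-fold higher in EOM (1.42 ± 0.26, adjusted p = 0.000596). All of these were apart between the muscles.

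The other 3 markers called were likewise higher in EOM. Ugt8, which makes the galactolipids of myelin, was higher at 1.57 ± 0.40 (adjusted p = 0.0153, up to 0.134 without EOM array 3 or leg array 2). Cnp, a phosphodiesterase of myelin-forming cells, had 2093, 2450.4 and 2159 units in EOM, against 521, 695 and 787 units in leg (1.76 ± 0.43, adjusted p = 0.0121, up to 0.0745 without EOM array 2 or leg array 1). The seventh was Cd9, a tetraspanin that is also widespread elsewhere and is named after its values were seen, at 1.09 ± 0.27 (adjusted p = 0.0153, up to 0.0851 without EOM array 3 or leg array 1 or 2). Not every marker was high: Pmp22, a peripheral myelin protein, read 24438, 16034 and 18359 units in EOM and 19282, 15738 and 18126 units in leg, with overlap on the brightest part of the scale (0.13 ± 0.25, adjusted p = 0.875). Ngfr, the neurotrophin receptor of immature Schwann cells, read 2621, 2816 and 2475 units in EOM and 4322, 3855 and 3200.3 units in leg (-0.52 ± 0.40, adjusted p = 0.589). The summed intensity of the 17 markers was 46031 to 54393 units in EOM and 30119 to 36242 units in leg, and none was at the floor on all EOM arrays. With 1 array left out 4 to 7 markers were called higher, 4 of them without EOM array 3, and 5 without EOM array 3 and leg array 3 together.

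Several of the largest differences were in genes on none of the lists. Prune2, a scaffold protein abundant in neurons, had 1599, 1693 and 892 units in EOM, against 136, 275 and 59 units in leg, EOM exceeding leg at least 8.65-fold (3.11 ± 0.48, adjusted p = 6.37e-05). Ndrg4, a protein of neurons and heart, had 4249, 5875 and 4642 units in EOM, against 587, 567 and 1409 units in leg, with both probe sets called (2.65 ± 0.39, adjusted p = 3.84e-05). Aatk, a kinase of the nervous system, had 1548, 1295 and 1849.8 units in EOM, against 356, 299 and 157 units in leg (2.60 ± 0.40, adjusted p = 6.40e-05). For all of these the EOM arrays stood clear of the leg arrays. Rab15, a small GTPase of endosomes that is abundant in neurons, read 921, 1018 and 284 units in EOM and 165, 101 and 91.2 units in leg, at least 5.43-fold higher (adjusted p = 0.00975, up to 0.0732 without EOM array 1 or 2 or leg array 2). Ptgds, a prostaglandin D synthase of the brain coverings, was at least 6.62-fold higher (adjusted p = 0.00335), and was not called without EOM array 3 and leg array 3 together (adjusted p = 0.0711). Cyp1b1, a cytochrome P450 of ocular tissues, had 581, 868 and 806 units in EOM, against 189, 78.4 and 103 units in leg (2.57 ± 0.38, adjusted p = 3.84e-05), with 2 of its 4 probe sets called. Whether these signals came from muscle fibres or from other cells of the sample was not tested.

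Upstream sequences of 3 of these genes are shown to give the DNA beside the difference: 1 with a match to the motif of the muscle factor MEF2, 1 with a match to the CArG box that serum response factor binds, and the most clearly lower fast fibre gene, which held neither. They were picked after the matches were known. Each is the 250 bases before the annotated start in RefSeq, build GRCr8, 5′ to 3′ on the gene's strand. Capitals mark the MEF2 or CArG match. Rab15 is at chr6:101257084-101257333 (minus strand), Prune2 at chr1:223779520-223779769 (plus strand) and Mybpc2 at chr1:104154102-104154351 (minus strand).
Rab15: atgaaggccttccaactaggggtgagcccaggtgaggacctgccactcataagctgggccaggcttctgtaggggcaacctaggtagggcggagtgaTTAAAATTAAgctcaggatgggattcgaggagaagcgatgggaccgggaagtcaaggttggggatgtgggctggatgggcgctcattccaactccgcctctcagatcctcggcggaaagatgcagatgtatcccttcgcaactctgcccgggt
Prune2: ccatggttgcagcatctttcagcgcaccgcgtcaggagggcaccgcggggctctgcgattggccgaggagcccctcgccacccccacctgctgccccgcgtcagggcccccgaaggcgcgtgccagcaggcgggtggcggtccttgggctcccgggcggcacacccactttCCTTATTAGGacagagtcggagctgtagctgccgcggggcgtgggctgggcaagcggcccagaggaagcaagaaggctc
Mybpc2: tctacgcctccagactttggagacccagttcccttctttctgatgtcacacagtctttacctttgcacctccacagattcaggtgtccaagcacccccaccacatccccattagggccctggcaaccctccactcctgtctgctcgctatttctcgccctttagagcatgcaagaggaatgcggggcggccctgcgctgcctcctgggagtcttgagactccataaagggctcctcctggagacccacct
The match in Rab15 began 153 bases before the start and that in Prune2 79 bases before it. Both strands were searched for the 2 motifs and for the E box CAGCTG, which the windows shown do not hold, in 300 bases from 250 before to 50 after each start. Of the 15 genes of largest difference on the higher side, 14 had an entry, with 18 windows: 3 held a MEF2 match (16.7%, against 3.29% of all 33469 windows), 1 a CArG match (5.56%, against 1.64%) and 4 a CAGCTG (22.2%, against 15.1%). Of the 4, 1 was the window of Myh13, matched by symbol, whose annotated start may not be a transcription start. Aldoa, which is unsure as a difference between muscles, gave 1 of the MEF2 windows and 1 of the CAGCTG windows. Of the 15 on the lower side, 9 had an entry, with 10 windows: none held a MEF2 or CArG match and 2 held a CAGCTG. Genes were matched by identifier or symbol. Windows of 1 gene can share sequence, and a match of letters is not a measured binding site.

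Of 32 tested extracellular matrix genes 3 were higher in EOM and none was lower (9.38%, against 4.91% of all genes), with a median of 0.16, and with 1 array left out 2 to 3 were higher. Eln, elastin, had 21257, 10308 and 16428 units in EOM, against 3641, 5694 and 5947 units in leg (1.62 ± 0.27, adjusted p = 0.000165), with the EOM arrays in the brightest 5% of values. Fbln5, fibulin 5, which helps elastic fibres assemble, had 4672, 5982 and 5549 units in EOM, against 2334, 2895 and 3120.0 units in leg (0.96 ± 0.21, adjusted p = 0.00399). Both elastic fibre genes were apart between the muscles. Mmp2, a gelatinase, was higher at 0.74 ± 0.19 in 1 of 2 probe sets (adjusted p = 0.0151, up to 0.0848 without EOM array 1 or leg array 1 or 2), and Spock2, a proteoglycan of the matrix, was at least 4.87-fold higher with all leg arrays at the floor (adjusted p = 0.00243). Comp, a cartilage and tendon matrix protein, was lower, with 139.7, 127 and 129 units in EOM and 369, 281 and 469.5 units in leg (-1.47 ± 0.42, adjusted p = 0.0354, up to 0.122 without any 1 of the 6 arrays). It was the only gene called of 13 tested markers of cartilage, tendon and bone (7.69%, against 4.91% of all genes). These summed to 45982 to 47794 units in EOM and 47437 to 48674 units in leg.

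Proteins of the membrane skeleton and Z disc were also lower in several members. Of 15 tested, 4 were lower and 1 was higher in EOM (33.3%, against 4.91% of all genes), with a median of -0.15. Capn3, the muscle calpain bound to titin, had 2414, 2369.9 and 1912 units in EOM, against 6065, 6234 and 4721 units in leg, and was lower in 3 of 3 probe sets (-1.34 ± 0.26, adjusted p = 0.00136). Ldb3, a PDZ protein of the Z disc, read 5674, 5562 and 12896 units in EOM and 17931, 16362 and 12656 units in leg. EOM array 3 lay among the leg arrays while the other EOM arrays lay low (-1.06 ± 0.25, adjusted p = 0.00892, up to 0.0853 without EOM array 1 or 2 or leg array 1). Pdlim3, which binds actinin, was lower at -0.77 ± 0.23 (adjusted p = 0.0426), but not with the replicate number as a block over all arrays (adjusted p = 0.0668) nor in the fits that left out 1 array (up to 0.126 without any 1 of the 6 arrays). Csrp3 was the fourth. Itga7, the laminin receptor of muscle fibres, was higher at 0.68 ± 0.17 in 1 of 3 probe sets (adjusted p = 0.0163, up to 0.123 without EOM array 3 or leg array 1 or 2).

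Among growth regulators, 4 of 32 tested genes were higher and 1 was lower (15.6%, against 4.91% of all genes), with a median of 0.01. Igf1, a growth factor for muscle, had 5844, 10096 and 5953 units in EOM, against 2959.8, 2266 and 2491 units in leg, but only 1 of its 5 probe sets was called (1.46 ± 0.35, adjusted p = 0.0103, up to 0.0891 without EOM array 2 or leg array 2). The other Igf1 probe sets were split in direction, at -1.12, -0.62, 0.71 and 0.84. Mstn, myostatin, which limits muscle growth, had 441, 471 and 417 units in EOM, against 633, 1175 and 872 units in leg (-0.97 ± 0.29, adjusted p = 0.0447, up to 0.262 without EOM array 1, 2 or 3 or leg array 2 or 3). The arrays of each muscle were apart for both. Tgfb3, a growth factor of the TGF beta family, was higher at 1.03 ± 0.20 in 1 of 2 probe sets (adjusted p = 0.00118). H19, an imprinted noncoding RNA of fetal muscle, read 23472, 11305 and 17394 units in EOM, against 8999, 1966 and 3034 units in leg, and 1 of its 2 probe sets was called (2.14 ± 0.64, adjusted p = 0.0471, up to 0.262 without EOM array 1, 2 or 3 or leg array 2 or 3). Id2, an inhibitor of the myogenic factors, overlapped at 1451, 1999 and 2119.5 units in EOM and 726, 770.2 and 1469.7 units in leg and was called higher (0.97 ± 0.28, adjusted p = 0.0389, up to 0.212 without EOM array 2 or 3 or leg array 1 or 2).

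Cell cycle genes gave 1 call each way among 20 tested, a share above that of all genes (4.91%), with a median of -0.26. Cdkn1a, the inhibitor p21, which marks cells leaving the cycle, had 3123, 3455 and 1461 units in EOM, against 265, 879 and 665 units in leg, with both probe sets called (2.22 ± 0.58, adjusted p = 0.0194, up to 0.156 without EOM array 1 or 2 or leg array 1). Aurkb, a mitotic kinase, had 303, 169 and 296 units in EOM and 479.5, 556 and 426 units in leg (-0.97 ± 0.29, adjusted p = 0.0461, up to 0.279 without EOM array 1 or 2 or leg array 1, 2 or 3). It was not called with the replicate number as a block over all arrays (adjusted p = 0.0870). Nupr1, a small stress-induced nuclear protein, had 1416, 1442 and 1868 units in EOM, against 153, 427 and 429 units in leg (2.36 ± 0.56, adjusted p = 0.00898, up to 0.093 without leg array 1). Nr4a1, an immediate early nuclear receptor, was lower at -1.37 ± 0.31 in 1 of 2 probe sets (adjusted p = 0.0053, up to 0.0562 without leg array 1 or 2). It was the single call among 20 tested immediate early and stress genes (5.0%, against 4.91% of all genes).

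A few antioxidant genes were higher in EOM. Of 25 tested, 4 were higher and none was lower (16.0%, against 4.91% of all genes), with a median of 0.24. In 9 of the 25 all EOM arrays lay above all leg arrays, which was so for 13.6% of all genes. Gstm2, a glutathione transferase, had 7254, 7208 and 6017 units in EOM, against 2268, 3195 and 2095 units in leg. It was 2.75-fold higher (adjusted p = 0.00029), with both probe sets called. Gpx3, a secreted glutathione peroxidase, had 5925, 5937 and 5343 units in EOM, against 2584, 2261 and 2753 units in leg (1.18 ± 0.27, adjusted p = 0.00713). Neither gene had overlapping groups. Mt3, a metallothionein first known from brain, had 3692, 4023 and 3709.9 units in EOM, against 1178, 1348 and 1179 units in leg (1.63 ± 0.43, adjusted p = 0.0198, up to 0.0745 without EOM array 1 or 2 or leg array 1, 2 or 3). Gsta4, a transferase that clears lipid peroxidation products, was higher at 0.83 ± 0.22 in 1 of 2 probe sets (adjusted p = 0.0224, up to 0.105 without EOM array 1 or 3 or leg array 1 or 2).

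**Figure D4:**
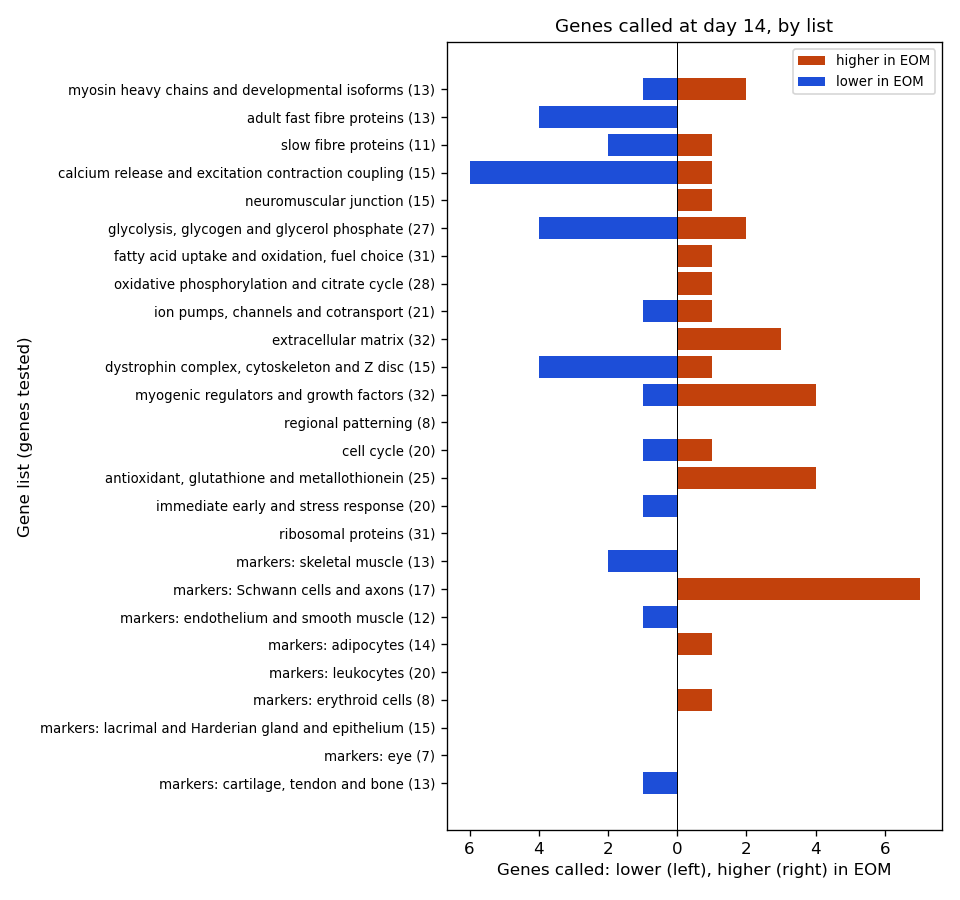
Number of genes called at day 14 in each of 26 lists, higher in EOM to the right (red) and lower in EOM to the left (blue), with the number of genes tested in brackets. The calcium and coupling list has 6 lower and 1 higher of 15, the Schwann cell and axon markers 7 higher of 17, and the ribosomal proteins, regional patterning genes, leukocyte, gland and eye markers have none.

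The neuromuscular junction list had 1 call among 15 tested (6.67%, against 4.91% of all genes), with a median of 0.24. Of its differences 13 were positive, against 2095 of all 3889 genes. Chrne, the adult subunit of the acetylcholine receptor, had 3305, 3165 and 2709 units in EOM, against 1277, 1933 and 1738 units in leg (0.91 ± 0.24, adjusted p = 0.0217, up to 0.148 without EOM array 1 or 2 or leg array 1). Chrng, the fetal subunit that it replaces, read 2286, 2510.2 and 1925 units in EOM and 2281, 2632 and 2298 units in leg, with overlap (-0.11 ± 0.17, adjusted p = 0.845). The adult subunit was thus apart between the muscles while the fetal one was not, but the 2 subunits were not tested against each other. The receptor subunits Chrna1 and Chrnd, named after their values were seen, were not called. They differed by 0.55 ± 0.18 and 0.15 ± 0.18 (adjusted p = 0.0736 and 0.764 by limma), with Chrna1 apart between the muscles and Chrnd overlapping.

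Other cell types moved in single genes. Scd2, a fatty acid desaturase, had 7337, 9479 and 8653 units in EOM, against 3083, 2460.3 and 3902 units in leg (1.45 ± 0.29, adjusted p = 0.00149), with 2 of 5 probe sets called. It was the only gene called of 14 adipocyte markers (7.14%, against 4.91% of all genes). These summed to 55884 to 61011 units in EOM and 44241 to 50551 units in leg. Acta2, the smooth muscle actin, had 7170.4, 7885 and 4997 units in EOM, against 15372, 16437 and 17019.9 units in leg (-1.31 ± 0.30, adjusted p = 0.00601), with 1 of 3 probe sets called, and was not called without EOM array 3 and leg array 3 together (adjusted p = 0.0917). That was the single call among 12 markers of endothelium and smooth muscle (8.33%, against 4.91% of all genes). Their median difference was -0.12, and 5 of the 12 were positive. They summed to 29002 to 34006 units in EOM and 44100 to 49405 units in leg, and these sums include the Acta2 values above. Alas2, the heme synthesis enzyme of red cells, was called higher at 1.02 ± 0.31 (adjusted p = 0.0467, up to 0.213 without EOM array 1, 2 or 3 or leg array 1 or 2). It was the 1 call among 8 erythroid markers (12.5%, against 4.91% of all genes). These summed to 25313 to 46247 units in EOM and 34694 to 45049 units in leg. None of 20 leukocyte markers (median 0.27), none of 15 gland and epithelial markers (median -0.07), none of 31 ribosomal proteins (median -0.08) and none of 8 regional patterning genes (median 0.10) was called. In these lists the largest values were those of Lyz2, a lysozyme of macrophages (0.73 ± 0.41), Cd74, the invariant chain of antigen presentation (0.77 ± 0.52), Pip, a secreted gland protein (1.26 ± 0.75), Krt1, an epidermal keratin (-1.18 ± 0.56), the ribosomal proteins Rpl17 (-0.74 ± 0.37) and Rpl5 (-0.71 ± 0.45), and the homeobox genes Msx1 (1.32 ± 0.55) and Lhx2 (-1.14 ± 0.38). In the eye list they were Sag, the rod arrestin (-0.84 ± 0.42), and Crygd, a lens crystallin (-0.65 ± 0.42). The adjusted p of these was between 0.0788 and 0.507.

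The rest of the largest differences belonged to no list. Ppp1r1a, an inhibitor of protein phosphatase 1, had 916, 2091 and 1924 units in EOM, against 10440.4, 10486 and 8311 units in leg, with both probe sets called (-2.65 ± 0.31, adjusted p = 8.55e-07). Ptpn3, a tyrosine phosphatase, had 1070.2, 1254 and 1060.3 units in EOM, against 4490.1, 4420.0 and 3112 units in leg, with 1 of 2 probe sets called (-1.81 ± 0.27, adjusted p = 3.84e-05). Mllt3, a reader of acylated histones, was lower in both probe sets (-1.76 ± 0.35, adjusted p = 0.00131). The muscles were apart in all of these. Exoc4, a subunit of the exocyst, read 124, 87.5 and 129 units in EOM and 444, 667 and 325 units in leg, at least 3.92-fold lower (-1.97 ± 0.51, adjusted p = 0.017, up to 0.12 without EOM array 2 or leg array 1 or 2). Dact2, an inhibitor of Wnt and TGF beta signals, was at least 4.62-fold higher (adjusted p = 0.0161, up to 0.144 without EOM array 1 or 2 or leg array 2).

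Whether the muscle difference at day 14 was that of the age before was tested as the difference at day 14 minus the difference at day 7. It was called for 32 of 6672 probe sets (0.48%), 10 positive and 22 negative, and for 19 of 3889 genes (0.489%), 6 positive and 13 negative. At an unadjusted p under 0.05 there were 487 probe sets (7.3%). The count was 19 without EOM array 1, 21 without leg array 2 and 53 without EOM array 3. These were arrays of day 14, and no array of day 7 was left out. Of the 191 genes called at day 14, 69 (36.1%) had also been called the same way at day 7 and 1 the other way. The 69 were 33.5% of the 206 genes called at day 7 (5.3% of those tested).

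The deficit of a fast myosin in EOM at day 7 was not found at day 14. Myh4 differed by -2.84 ± 0.37 at day 7 and by -0.15 ± 0.37 at day 14, a change of 2.69 ± 0.53 (adjusted p = 0.00912). Pvalb changed likewise, at -2.06 ± 0.33 at day 7 and 0.23 ± 0.33 at day 14, a change of 2.29 ± 0.47 (adjusted p = 0.0125, up to 0.0615 without EOM array 1 or leg array 2). At day 14 neither was called. Ak4 differed by -1.17 ± 0.45 at day 7, not called, and by 2.37 ± 0.45 at day 14, a change of 3.55 ± 0.64 (adjusted p = 0.00362). Rnase1, a secreted ribonuclease, differed by -0.79 ± 0.42 at day 7, not called, and by 1.87 ± 0.42 at day 14, a change of 2.66 ± 0.60 (adjusted p = 0.0291, up to 0.144 without EOM array 1 or leg array 1 or 2), and it was not called with the replicate number as a block over all arrays (adjusted p = 0.0976). The adjusted p of its difference at day 14 was 0.00579, up to 0.0712 without EOM array 1 or leg array 1. Klk1, a tissue kallikrein, turned its sign: it was lower in EOM by -1.98 ± 0.29 at day 7 and higher by 1.08 ± 0.29 at day 14, with 13627, 18175 and 9328 units in EOM against 6014, 5243 and 7688 units in leg in 1 of 2 probe sets. The change of 3.07 ± 0.41 had an adjusted p of 0.000189, and the adjusted p of the call at day 14 itself was 0.0239, up to 0.171 without EOM array 1 or 2 or leg array 1 or 2. Kallikrein genes are a family of close copies, so which member the probe set measured is uncertain.

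Of the 15 gland and epithelial markers 6 had a negative change from day 7 to day 14 and none a positive one, against 0.489% of all genes called either way, and 2 of the 6, Cldn3 and Tspan8, were also called with the replicate number as a block over all arrays. Cldn3, a claudin of epithelial tight junctions, differed by 3.85 ± 0.56 at day 7 and -0.79 ± 0.56 at day 14, a change of -4.64 ± 0.80 (adjusted p = 0.00258). Tspan8, a tetraspanin of epithelia, differed by 2.36 ± 0.40 at day 7 and -1.14 ± 0.40 at day 14, a change of -3.50 ± 0.56 (adjusted p = 0.00174), and with the replicate number as a block over all arrays it was called lower at day 14 (adjusted p = 0.0235). Lgals7, a galectin of stratified epithelium, changed by -3.25 ± 0.76 (adjusted p = 0.0394, up to 0.171 without EOM array 1 or 2 or leg array 1 or 3), and was not called with the replicate block (adjusted p = 0.0870). Lrp2, an endocytic receptor of absorbing epithelia, changed by -3.22 ± 0.64 (adjusted p = 0.0109), and Mia, which cartilage and melanoma cells secrete, by -3.43 ± 0.49 (adjusted p = 0.000318). At day 14 none of these 5 was called, and their highest reading on an EOM array was 1071 units, for Tspan8. The other 3 of the 6 epithelial markers were Epcam, Krt8 and Krt19, named after their values were seen, with changes of -3.02 ± 0.70, -2.59 ± 0.54 and -3.00 ± 0.68 (adjusted p = 0.0383, up to 0.1 without EOM array 1, 2 or 3 or leg array 2 or 3; 0.0142, up to 0.058 without EOM array 2; and 0.0344, up to 0.147 without EOM array 1 or 2 or leg array 1, 2 or 3). None of these 3 was called with the replicate block (adjusted p = 0.0606, 0.0654 and 0.0639). Csrp3 moved apart instead, at -0.18 ± 0.23 at day 7 and -1.60 ± 0.23 at day 14. Its change was -1.43 ± 0.32 (adjusted p = 0.0309, up to 0.0877 without EOM array 1 or 2 or leg array 2 or 3). At day 21 it differed by -0.27 ± 0.23, which was not called. Tpm2, a tropomyosin named after its values were seen, also moved apart, with a change of -1.26 ± 0.25 (adjusted p = 0.0109 by limma, 0.0289 with the replicate block).

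**Figure D5:**
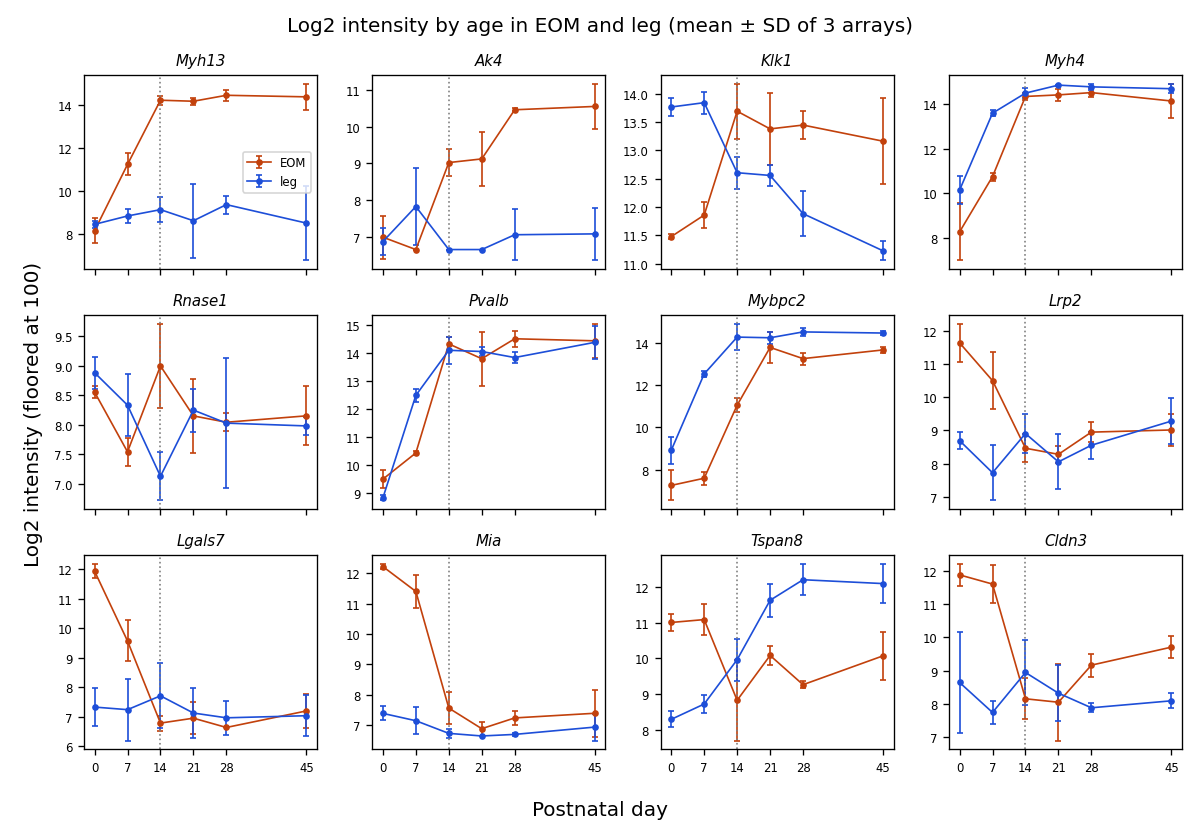
Mean log2 intensity (floored at 100) with SD over 3 arrays against postnatal day, 1 panel per gene, with EOM in red, leg in blue and day 14 marked by a dotted line. Myh13 is bright in EOM from day 14 on while Myh4 and Pvalb reach the leg level at day 14, Mybpc2 is still lower in EOM there (-3.22) and differs by -0.46 at day 21, Klk1 crosses over between days 7 and 14, and Cldn3, Mia, Lgals7 and Lrp2 have lost the excess in EOM that they showed at days 0 and 7.

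Few changes of the difference between muscles were called in the week that followed. The difference at day 14 minus that at day 21 was called for 1 of 6672 probe sets (0.015%), with 350 at an unadjusted p under 0.05 (5.25%). Of the 191 genes called at day 14, 68 (35.6%) were also called the same way at day 21 and none the other way. The 68 were 41.7% of the 163 genes called at day 21 (4.19% of those tested). The 1 probe set was that of Mybpc2, which differed by -3.22 ± 0.33 at day 14 and by -0.46 ± 0.33 at day 21, a change of -2.77 ± 0.47 (adjusted p = 0.0144, up to 0.122 without leg array 1 or 2). It read 18286, 19713 and 7803 units in EOM and 23819, 19172 and 15928 units in leg at day 21, so that EOM array 1 and EOM array 2 lay within the leg range and EOM array 3 lay under it.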

How the data were processed

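Total RNA of rat EOM and leg muscle was hybridised to an Affymetrix rat array, per the labels. The deposited table of the authors gives each probe set a single linear intensity on each array. Which software summarised and scaled the probes was not given in the sources used here, so the deposited scaling was kept. Muscle, age and replicate number came from the titles, a few of which are misspelt. All 36 array columns were mapped, and 0 columns were left unmapped. With 3 arrays per group, their number limits the precision, and no count or depth lies behind an intensity.

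The 59 control probe sets were left out, values were floored at 100 (log2 6.64) and turned to log2, and the test was limited to probe sets over the 40th percentile of all values (intensity 320.4) on 3 or more of the 36 arrays. Of 8799 probe sets, 6672 were tested. Group means of all 12 groups were fitted with limma 3.58.1 in R 4.3.3 (lmFit and eBayes with a trend, 24 residual and 5.84 prior degrees of freedom), so that the spread behind each error is pooled over the series. The contrasts of interest were EOM minus leg at day 14, and that difference minus the same at day 7 and at day 21. Benjamini-Hochberg adjustment was made within each contrast with a threshold of 0.05. The fit was tested on simulated data with known changes. Plots used matplotlib 3.10.9 (python 3.11.15).

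In the platform annotation 7006 probe sets had 1 symbol, 308 had several and 1426 had none. By gene identifier 6985 matched the gene table used, and 0 symbols were updated. Tested probe sets with 1 symbol (5451) covered 3889 genes, for each of which the probe set with the highest mean was used, and 49 called probe sets with several symbols or none are not named. Named genes are the 15 largest differences each way among called genes whose groups do not overlap, up to 6 called members of each of 26 lists (or up to 2 as values where none was called), the myosin genes Myh13, Myh8, Myh7, Myh4, Myh3, Myh2 and Myh1 with Chrne and Chrng, and the 5 largest each way for each difference between ages. The members, the lists and the tests were chosen with earlier results of these data known, so no list or test here is independent of them. The lists share genes, for example Csrp3.

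Replicate numbers were checked for pairing: deviations from the group means at day 14 correlated at 0.116, 0.105 and 0.164 between same-numbered EOM and leg arrays, and at -0.141 to 0.0198 between different numbers. Each same-numbered value exceeds 0.1, so the numbers may pair the arrays. This comes from the data, since the labels give no litter, day or batch. Alternatives changed the floor, scaling, filter, variance model, array weights, arrays fitted, replicate block and arrays left out.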

Additional observations from a re-analysis of the deposited data

Results flagged for a closer look

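These genes are listed because the difference between EOM and leg at day 14 itself differed from that at another age in a limma contrast (Benjamini-Hochberg adjusted p under 0.05 over all 6672 probe sets), and they are the 5 largest such changes each way with Mybpc2, Csrp3 and the epithelial markers Epcam, Krt8 and Krt19. Against day 7, the change was positive for Ak4 (3.55), Klk1 (3.07), Myh4 (2.69), Rnase1 (2.66) and Pvalb (2.29), on the log2 scale of EOM minus leg. It was negative for Cldn3 (-4.64), Tspan8 (-3.50), Mia (-3.43), Lgals7 (-3.25), Lrp2 (-3.22), Epcam (-3.02), Krt19 (-3.00), Krt8 (-2.59) and Csrp3 (-1.43). For Klk1, the difference was -1.98 ± 0.29 at day 7 and 1.08 ± 0.29 at day 14, so its sign turned. Against day 21, Mybpc2 alone was called, with -2.77: its difference was -3.22 ± 0.33 at day 14 and -0.46 ± 0.33 at day 21.

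The fits that left out 1 array dropped only arrays of day 14, so dependence on single arrays of day 7 or 21 was not tested. The calls of Ak4, Klk1, Myh4, Cldn3, Tspan8, Mia and Lrp2 against day 7 held in all 6 fits. Those of Rnase1, Pvalb, Csrp3 and Lgals7 against day 7 and of Mybpc2 against day 21 were lost in at least 1, with a highest adjusted p of 0.144, 0.0615, 0.0877, 0.171 and 0.122. Those of Epcam, Krt8 and Krt19 were also lost in at least 1. With the replicate number as a block over all arrays, the calls against day 7 of Rnase1 (adjusted p = 0.0976), Lgals7 (0.0870), Epcam (0.0606), Krt8 (0.0654) and Krt19 (0.0639) were lost, and the other calls listed here held.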

How the results depend on the processing

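None of the 76 called genes named changed direction under any alternative run. The 328 probe sets called at day 14 numbered 302 to 342 over other floors, scalings, filters and variance models, 251 after dropping probe sets that touch the brightest 5%, 470 with array weights, 175 with only the 6 arrays, and 177 to 333 with 1 array left out. With quantile normalization 169 were higher and 173 lower, with median scaling 153 and 149. With the replicate block over all 36 arrays 461 were called, 312 of them among the 328, and with the block in the 6 arrays alone 90. Of the 76 called genes named, 74 kept the call with the block over all arrays (Pdlim3 and Aurkb lost it, Tspan8 gained it, and no other named call at day 14 changed), 67 with median scaling, 49 with only the 6 arrays, 31 with the block in them, and 49 to 67 with 1 array left out. For day 14 against day 7 (32 probe sets), the count was 52 with a floor of 200, 98 with array weights, 21 with only the arrays compared, 13 with the replicate block in them, and 19 to 53 with 1 array left out; the block over all arrays ended the changes of Rnase1, Lgals7, Epcam, Krt8 and Krt19. For day 14 against day 21 (1), it was 0 with a floor of 50, 0 with no filter, 0 without the top 5%, 3 with array weights, 0 with the replicate block in the arrays compared, 0 to 3 with 1 array left out (0 without leg array 1 or 2, 3 without EOM array 3; the limma fit had 350 at an unadjusted p under 0.05), and 2 without EOM array 3 and leg array 3. The cause of these shifts was not tested, also where fewer arrays and so fewer degrees of freedom entered the test. The last alternative, and one without probe sets that spread by 3 or more log2 units within a group (331 called at day 14), were chosen after seeing the data. Values at the floor or in the brightest 5% limit how large a difference can read.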

Other observations

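Called genes on no list, picked after their values were seen, included transcription factors. Nkx2-5, a homeobox factor of the heart, read 1295, 915 and 704 units in EOM and 55.2, 182 and 658 units in leg (2.04 ± 0.55, adjusted p = 0.0253 by limma, up to 0.217 without EOM array 1 or 2 or leg array 1 or 2). Nr2f1, an orphan nuclear receptor, read 1648, 1177 and 859.7 units in EOM, against 269, 448 and 383 units in leg (1.72 ± 0.36, adjusted p = 0.0031). The EOM arrays lay above the leg arrays for both, although leg array 3 came close for Nkx2-5. Hoxa5, a homeobox factor of the trunk and forelimb level, ran the other way with 72.4, 59.5 and 52.7 units in EOM, all at the floor, and 221, 278 and 453 units in leg (-1.60 ± 0.39, adjusted p = 0.0125, up to 0.0785 without leg array 3). Nfix, a factor that promotes fetal muscle genes in the mouse, read 893, 1440.2 and 9147 units in EOM and 11739, 8718 and 9746 units in leg. EOM array 3 lay at the leg level and the other EOM arrays far under it, and 2 of 3 probe sets were called (-2.14 ± 0.59, adjusted p = 0.028, up to 0.245 without EOM array 1 or 2 or leg array 1, 2 or 3).

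Secreted proteins of connective tissue were among the others. Efemp1, an extracellular matrix protein related to the fibulins, had 3215, 3068 and 2494 units in EOM, against 737, 815 and 884 units in leg (1.84 ± 0.33, adjusted p = 0.000543 by limma), with both probe sets called. Plat, the tissue plasminogen activator, had 2455, 3218 and 2810.2 units in EOM, against 812, 906 and 1121 units in leg (1.58 ± 0.22, adjusted p = 2.19e-05). Ltbp1, which stores latent TGF beta in the matrix, was higher at 1.20 ± 0.25 (adjusted p = 0.00231). All of these were apart between the muscles and kept the call with any 1 array left out. Ccl11, the chemokine eotaxin, had 398, 328 and 259 units in EOM and 44.4, 3.2 and 38.6 units in leg, where all arrays lay at the floor, so that it was at least 3.23-fold higher (adjusted p = 0.00392).

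Lower genes of the same kind belonged to the triad and to metabolism. Jph2, junctophilin 2, which ties the surface membrane to the calcium store, had 5767, 5404 and 5270.1 units in EOM, against 12611, 11772 and 9292 units in leg (-1.02 ± 0.25, adjusted p = 0.0129 by limma, up to 0.0745 without leg array 1 or 2). Gatm, the enzyme that starts creatine synthesis, had 869, 930.0 and 809.8 units in EOM, against 2679, 2862 and 2423 units in leg (-1.61 ± 0.35, adjusted p = 0.00367). Aqp4, the water channel of fast fibre membranes, had 577, 233 and 297 units in EOM, against 735, 924 and 714 units in leg (-1.20 ± 0.34, adjusted p = 0.0336, up to 0.209 without EOM array 2 or 3 or leg array 1, 2 or 3). Every leg array lay above every EOM array for these. Tpm2, the beta tropomyosin, was lower at -0.92 ± 0.18 (adjusted p = 0.00131).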
